A study of Mus musculus with 4 samples.

Results

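The rod-derived cone viability factors are the products of 2 genes, Nxnl1 and Nxnl2. Both were found by symbol among the 13452 Ensembl genes of a deposited table of transcript isoforms in the mouse retina, and 2 of its 44325 isoforms belonged to them, 1 for each gene. The isoforms came from nanopore long reads of single-cell cDNA made with 10x Genomics chemistry from the retina, in male mice of the inbred strain C57BL6/J, all wild-type. Of the 4 libraries, 2 had no enrichment, with an age label of postnatal day 40 for 1 of them, 1 had CD73 enrichment at postnatal week 8 and 1 had CD90.2 enrichment at postnatal month 4. Photoreceptors carry CD73 on their surface, and ganglion cells and other neurons carry CD90.2. The labels' protocol removed CD73-positive cells and kept CD90.2-positive cells by magnetic separation, while the design text names fluorescence-activated sorting. The table gives 1 column for each of 6 cell classes and names no library, so each class counts as 1 sample without replicates. No test between classes was possible, and intervals cover counting error only. Cells or animals per column are not given in the sources used here, and a level cannot tell fewer expressing cells from less RNA per cell. In marker lists of 6 genes per class, all 6 were highest in the column of their own class for all 6 classes. The summed rod markers had 65190.2 counts per 1000000 (CPM) in rods and 22674 CPM in cones. Most of both sums came from Gngt1, with 44574 CPM in rods and 21831 CPM in cones. The other 5 rod markers were at 2.53 to 4.53% of their rod level in the cone column.

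Nxnl1 encodes the rod-derived cone viability factor RdCVF, and Nxnl2 encodes its paralog RdCVF2. Each gene is known to make a short and a long protein. When the first intron is kept in the mRNA, translation stops early and gives a short, secreted protein with a truncated thioredoxin fold, which supports the survival of cones. When the intron is spliced out, the long protein is a thioredoxin-like protein that stays in the cell and is linked to protection against oxidation. The short form of RdCVF binds a splice form of basigin on cones, in a complex with the glucose transporter GLUT1.

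Only the spliced, long form was listed for either gene. The isoform of Nxnl1 (ENSMUSG00000034829.8) had the introns of the annotated transcript Nxnl1-201 (ENSMUST00000048243.6) and ran from 71561061 to 71566601 on the minus strand of chromosome 8 (GRCm38). Its 3 exons summed to 1780 nt. The isoform of Nxnl2 (ENSMUSG00000021396.5) had the introns of Nxnl2-201 (ENSMUST00000021828.5) and ran from 51171253 to 51175188 on the plus strand of chromosome 13. Its 2 exons summed to 936 nt. Both models held the whole annotated coding sequence, of 217 codons in Nxnl1 and 156 codons in Nxnl2. Intron 1 was 3317 nt long in Nxnl1 (71562937 to 71566253) and 3000 nt in Nxnl2 (51171625 to 51174624), and in both genes it split the coding sequence after 2 bases of a codon.

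The sequences across the end of exon 1 show what separates the long form from the short one. They are from GENCODE M21 transcripts, with 30 bases on each side of the end of exon 1. Capitals mark the codon that spans the splice junction in the spliced forms, and the first in-frame stop codon in the form of Nxnl2 that keeps the intron:
Nxnl1 spliced: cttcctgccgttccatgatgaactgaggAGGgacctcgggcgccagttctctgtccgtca
Nxnl2 spliced: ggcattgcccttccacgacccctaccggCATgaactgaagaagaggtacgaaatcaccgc
Nxnl2 intron kept: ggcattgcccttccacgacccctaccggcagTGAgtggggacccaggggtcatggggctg
The kept intron of Nxnl2 gave a stop codon after 1 intron base, so that reading ended after 101 codons, 55 fewer than in the spliced form. The last of these sequences (51171595 to 51171654) comes from Nxnl2-202, an annotated retained-intron transcript that ends inside intron 1, after 2338 of its bases. It was not among the listed isoforms. No M21 transcript of Nxnl1 keeps intron 1, so the matching sequence is not shown.

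The redox site was compared next because it sits in exon 1 and is therefore shared by the short and long forms. Thioredoxins carry a pair of cysteines, separated by 2 other residues, that are oxidised and reduced in turn. Capitals mark the codons at the first and last place of this site in each spliced coding sequence:
Nxnl1 redox site: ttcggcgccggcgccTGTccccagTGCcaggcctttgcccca
Nxnl2 redox site: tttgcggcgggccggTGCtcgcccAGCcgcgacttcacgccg
In Nxnl1 both codons were cysteine codons (TGT at codon 44 and TGC at codon 47). At the aligned place in Nxnl2, codon 38 was a cysteine codon (TGC) and codon 41 was a serine codon (AGC). Over 453 aligned bases of coding sequence the 2 genes were identical at 58.1%.

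**Figure D1:**
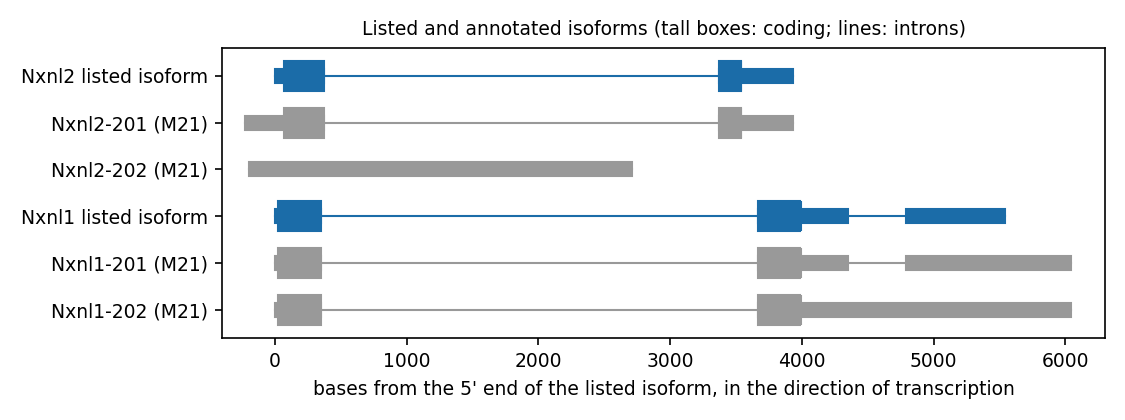
Listed isoforms of Nxnl2 and Nxnl1 (blue) and their annotated M21 transcripts (grey), drawn to scale against the distance in bases from the 5′ end of the listed isoform. Tall boxes are the annotated coding sequence, low boxes other exon sequence and lines introns. Both listed isoforms splice intron 1, whereas Nxnl2-202 reads on into it, and the second intron of Nxnl1 lies after the coding sequence.

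Annotated ends were not all reached. The model of Nxnl2 began 231 bases downstream of the annotated 5′ end, still upstream of the start codon, and shared its 3′ end. That of Nxnl1 shared the annotated 5′ end and stopped 505 bases short of the 3′ end. Nxnl1 has a second intron of 444 nt in its 3′ untranslated region (71561810 to 71562253), which the listed isoform spliced out. Nxnl1-202, the other of its 2 annotated transcripts, keeps that intron and was not listed. No other listed model, and no locus named by position, overlapped either gene.

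A single listed isoform is common in this table, as 4289 of 13452 Ensembl genes (31.9%) had only 1. Of 12233 genes with a spliced model, 631 (5.16%) also had a listed model in which an intron was kept whole, and 2311 (18.9%) had one whose last exon read on into an intron and ended there. Of 7535 listed genes with an annotated retained-intron transcript, 510 (6.77%) had such a transcript listed, so the lack of Nxnl2-202 places Nxnl2 with most of them. Where both forms of an intron were listed, the kept form was not rare. It held at least 50% of the counts at 326 of 839 introns in rods (38.9%) and at 172 of 472 introns in cones (36.4%), among introns with at least 20 counts in the column. For intron 1 of both genes, 0 counts lay on a form that keeps it in any class. The isoforms that are listed all have at least 6 counts in total, and filters on isoforms are not given in the sources used here. The table therefore gives no upper limit for the short forms.

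Nxnl2 was an abundant photoreceptor transcript. Its counts were 84809 in rods and 6146 in cones, then 1354 in the bipolar, 1034 in the Müller glia, 582 in the amacrine and 28 in the retinal ganglion cell column. Scaled to 1000000 counts per column, its level was 1529.8 CPM in rods (exact Poisson 95% interval 1519.5 to 1540.2), 841 CPM in cones (820.2 to 862) and 169 CPM in Müller glia (158 to 179). Bipolar cells had 46.7 CPM (44.2 to 49.2), amacrine cells 12.1 CPM (11.1 to 13.1) and ganglion cells 7.98 CPM (5.30 to 11.5). Rods and cones stood well above the other classes, and only the intervals of amacrine and ganglion cells overlapped between neighbours in this order. By CPM, Nxnl2 ranked 105 among 12462 genes with a count in rods and 220 among 10394 in cones.

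The listed, spliced isoform of Nxnl1 was rare in every class. It had 91 counts in rods, 11 in cones, 2 in bipolar cells, 1 in amacrine cells, and 0 in Müller glia and ganglion cells. The levels were 1.64 CPM in rods (1.32 to 2.02) and 1.51 CPM in cones (0.751 to 2.69). Bipolar cells had 0.0689 CPM (0.00835 to 0.249) and amacrine cells had 0.0207 CPM (0.000525 to 0.115). The intervals of rods and cones overlapped, as did those of bipolar and amacrine cells. The limit of 3 counts used for a count of 0 lies at 0.489 CPM in Müller glia and 0.855 CPM in ganglion cells. The exact intervals reach 0.601 and 1.05 CPM. These classes therefore have no place in the order below rods and cones. The rod level would give 10.1 counts at the depth of the Müller glia column and 5.76 at that of the ganglion cell column.

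**Figure D2:**
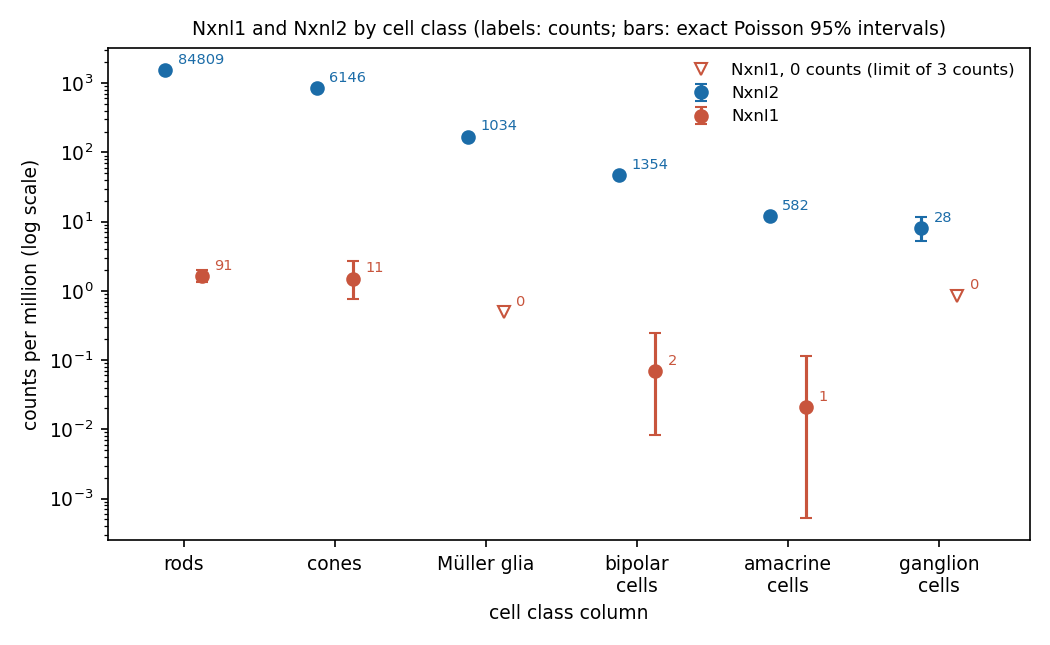
Level of Nxnl2 (blue) and Nxnl1 (red) in counts per 1000000, on a log scale, in the 6 cell class columns. Points carry exact Poisson 95% intervals and are labelled with the counts, and open triangles show the limit of 3 counts where a column has 0. Nxnl2 falls from 1529.8 CPM in rods to 7.98 CPM in ganglion cells, and Nxnl1 is near 1.6 CPM in rods and cones.

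Compared per length of the listed isoform, Nxnl2 lay far above Nxnl1. In rods Nxnl2 had 1634 CPM per kb and Nxnl1 0.922 CPM per kb, a ratio of 1772 (exact 95% interval 1443 to 2202). In cones the values were 899 and 0.846 CPM per kb, a ratio of 1063 (593 to 2130). The 2 intervals overlap. Without division by length, as 1 long read may stand for 1 transcript, the ratios of counts were 932 in rods and 559 in cones. In Müller glia Nxnl2 was at least 655-fold higher per kb, with Nxnl1 set to 3 counts. By total counts Nxnl2, with 93953, ranked 318 among 13439 genes, and Nxnl1, with 105, ranked 9755, below the median gene total of 468 counts.

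Most of the level of both genes was in photoreceptors. Rods and cones together held 91.0% of the summed CPM of Nxnl2 and 97.2% of that of Nxnl1. At least 90% was reached by 188 of 9863 genes with 100 or more counts (1.91%). Both genes also had their highest CPM in the rod column, as did 26.1% of those genes. The share of Nxnl1 takes its 0 counts in Müller glia and ganglion cells as 0 CPM. With both at the limit of 3 counts it was 68.7%, so the depth of these columns does not place Nxnl1 above 90%.

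Between rods and cones the levels of neither gene were 2-fold apart. Nxnl2 was 1.82-fold higher in rods (exact 95% interval 1.77 to 1.87). For Nxnl1 the ratio of rods to cones was 1.09 (0.582 to 2.26), so that neither equal levels nor a 2-fold difference was separable at this depth. For comparison, 26.4% of 9585 genes were at least 2-fold higher in rods and 10.8% at least 2-fold higher in cones, and the median gene was higher in rods by 0.33 on the log2 scale. Among 1493 genes with at least 100 CPM in rods or cones, the level at which Nxnl2 lies, these shares were 9.04% and 8.24%. When columns were scaled by the trimmed mean of M-values this median moved by -0.14, and with the median of ratios it moved by -0.27. The fold of Nxnl2 then became 1.66 and 1.51, and the order of rods and cones for Nxnl1, which lies within counting error, turned under both.

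Rod transcripts in the other columns were read beside these levels. Among 6 rod markers, Gnat1 (rod transducin) had 4.08% of its rod level in the cone column, Nrl (the rod-determining transcription factor) 4.53%, Cnga1 3.47% and Pde6b 2.53%. Gngt1, a transducin gamma subunit, was the exception at 49.0%. Nxnl2 in cones was at 55.0% of its rod level (53.6 to 56.4), above all 6 markers. Nxnl1 in cones was at 91.7% (44.2 to 172), an interval that begins above 5 of the markers and holds Gngt1. At the median percentage of the rod markers (4.10%), Nxnl1 would have had 0.492 counts in cones, where it had 11. At the percentage of Gngt1 the number would be higher. The part of rod RNA in the cone values was not tested.

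In Müller glia, amacrine and bipolar cells Nxnl2 lay within the range of the 6 rod markers. In Müller glia it was at 11.0% of its rod level, above 5 markers between 0.984 and 7.86%, and its interval (10.4 to 11.7%) holds Gngt1 at 11.6%. In amacrine cells it was at 0.788%, with markers from 0.554 to 0.969%. In bipolar cells it was at 3.05%, above 5 markers between 1.54 and 2.04% and below Gngt1 at 14.3%. The part of rod RNA in these values was not tested. Nxnl1 had 2 counts in bipolar cells and 1 in amacrine cells, where the median percentage of the rod markers would give 0.877 and 0.515 counts.

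Ganglion cells were different. The column held 28 counts of Nxnl2, which is 0.521% of the rod level (0.346 to 0.754). Of the 6 rod markers, 5 had 0 counts in it, and Gngt1 had 2. For 4 of these 5 a count of 0 allows less than 0.521% of the rod level, while for Cnga1 it allows up to 0.571%. All 6 had more than 0 counts in every other class.

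**Figure D3:**
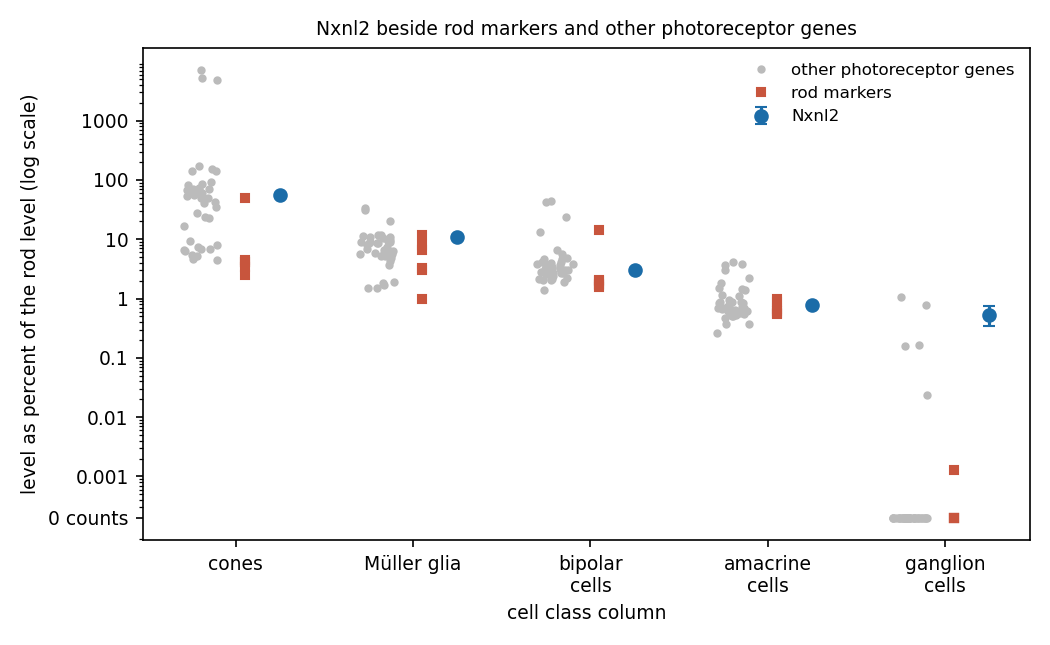
Level in each class as a percentage of the level in rods, on a log scale, for Nxnl2 (blue, with exact 95% intervals), the 6 rod markers (red squares) and 40 other genes with at least 100 CPM in rods and 90% of their summed CPM in rods and cones (grey). Points at the foot of the axis have 0 counts. In cones Nxnl2, at 55.0%, lies above all rod markers, and in ganglion cells, at 0.521%, 5 of the 6 markers have 0 counts.

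Known partners of the factors, Bsg, Slc2a1 and Mapt, came next in a list of 7 genes, the rest of which encode lactate transporters. The receptor gene Bsg (basigin) was at 2279 CPM in cones and 1230.4 CPM in rods, 1.85-fold higher in cones, and was highest in Müller glia at 9946 CPM. Its counts include all isoforms, so the cone receptor form is not separated. Slc2a1, which encodes GLUT1, had 40.6 CPM in cones (36.2 to 45.5), 55.7 CPM in rods (53.7 to 57.7) and 401 CPM in Müller glia. Mapt, which encodes tau, a reported partner of the long form, was low in photoreceptors at 9.99 CPM in cones and 14.1 CPM in rods and reached 198 CPM in bipolar cells. Of the 7 listed genes, 4 were highest in Müller glia, as were 17% of the 9863 genes with 100 or more counts. The bipolar column had 2 (13.9% of all genes), the amacrine column 1 (19.6%), and rods (26.1%) and cones (8.29%) had 0. The Müller glia column also held the most of 4 pigment epithelium markers, which summed to 8522 CPM there, nearly all from Ttr (8443 CPM), and to between 2.85 and 60.6 CPM elsewhere. Rpe65 had 58.4 CPM in it and Best1 had 0 counts. Their part in the Müller glia levels was not tested.

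The lactate transporters in that list differed more between photoreceptors. Slc16a3 was 4.60-fold higher in rods (75.5 against 16.4 CPM) and Slc16a1 was 2.17-fold higher (42.5 against 19.6 CPM). Markers of several other cell types, though not all, were also higher in rods than in cones. The summed level of 3 microglia markers was 288 CPM in rods and 20.8 CPM in cones, that of 6 Müller glia markers 1347 and 460.0 CPM, and that of 6 amacrine markers 15.7 and 4.11 CPM. Of these lists, 3 of 3, 4 of 6 and 6 of 6 genes were at least 2-fold higher in rods and 0 in cones, and their part in the folds of genes that are highest outside photoreceptors, such as Slc16a1, Slc16a3 and Nxn, was not tested. Slc16a1 and Slc16a3, 2 of the 7 genes of the list, were at least 2-fold higher in rods (26.4% of all genes), and 0 of 7 in cones (10.8%). Both other scalings turned this into 1 and 1: Slc16a1 dropped below 2-fold, and Bsg became 2.03-fold higher in cones by the trimmed mean and 2.23-fold by the median of ratios. Slc16a8 (32 counts in rods) and Slc16a7 (8 counts in rods) had 0 counts in cones. The middle value of the list, at 0.49 on the log2 scale of rods over cones, is that of Slc16a8 with 3 counts put in for cones, and so is a lower bound.

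Genes of the thioredoxin system, the wider family of the long forms, had their highest levels in all 6 classes. Of 26 genes listed for thioredoxins, glutaredoxins, peroxiredoxins and the enzymes that serve them, 2 were highest in rods and 1 in cones, while Müller glia and amacrine cells each had 7, ganglion cells 6 and bipolar cells 3. Among all genes the shares were 26.1% for rods, 8.29% for cones, 17% for Müller glia, 19.6% for amacrine, 15% for ganglion and 13.9% for bipolar cells. The most abundant of them in rods was Prdx2, a peroxiredoxin, at 737 CPM, followed by Prdx1 at 444 CPM. Txn2, the mitochondrial thioredoxin, had 335 CPM in rods, and Txn1, the cytosolic thioredoxin, had 331 CPM in rods and 407 CPM in cones. Nxn (nucleoredoxin), after which the Nxnl genes are named, had 1.43 CPM in rods and 10.3 CPM in Müller glia.

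Between rods and cones, 21 of the 26 genes were not called 2-fold apart. Among them Msra (36 counts in rods) and Txnl4b (30 counts in rods) had 0 counts in cones. Their folds of 1.58 and 1.32 in rods, with 3 counts put in for cones, are therefore lower bounds. A 2-fold difference is not excluded for them. At least 2-fold higher in rods were 2 of 26 (26.4% of all genes, 9.04% of those with at least 100 CPM). Nxn was at 2.08-fold on 79 and 5 counts (exact 95% interval 0.856 to 6.59). Txnrd3, a thioredoxin reductase, was at 2.99-fold on 68 and 0 counts, with 3 counts put in for cones. At least 2-fold higher in cones were 3 of 26 (10.8% and 8.24%), Prdx2 at 2.21-fold and the methionine sulfoxide reductases Msrb2 at 3.44-fold and Msrb3 at 3.03-fold. Msrb3 had 15 counts in rods and 6 in cones, and the interval of its fold (0.965 to 8.28) includes equal levels, as does that of Nxn. Nxn dropped below 2-fold under both other scalings. The list median was -0.05 on the log2 scale of rods over cones, against 0.33 for all genes.

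**Figure D4:**
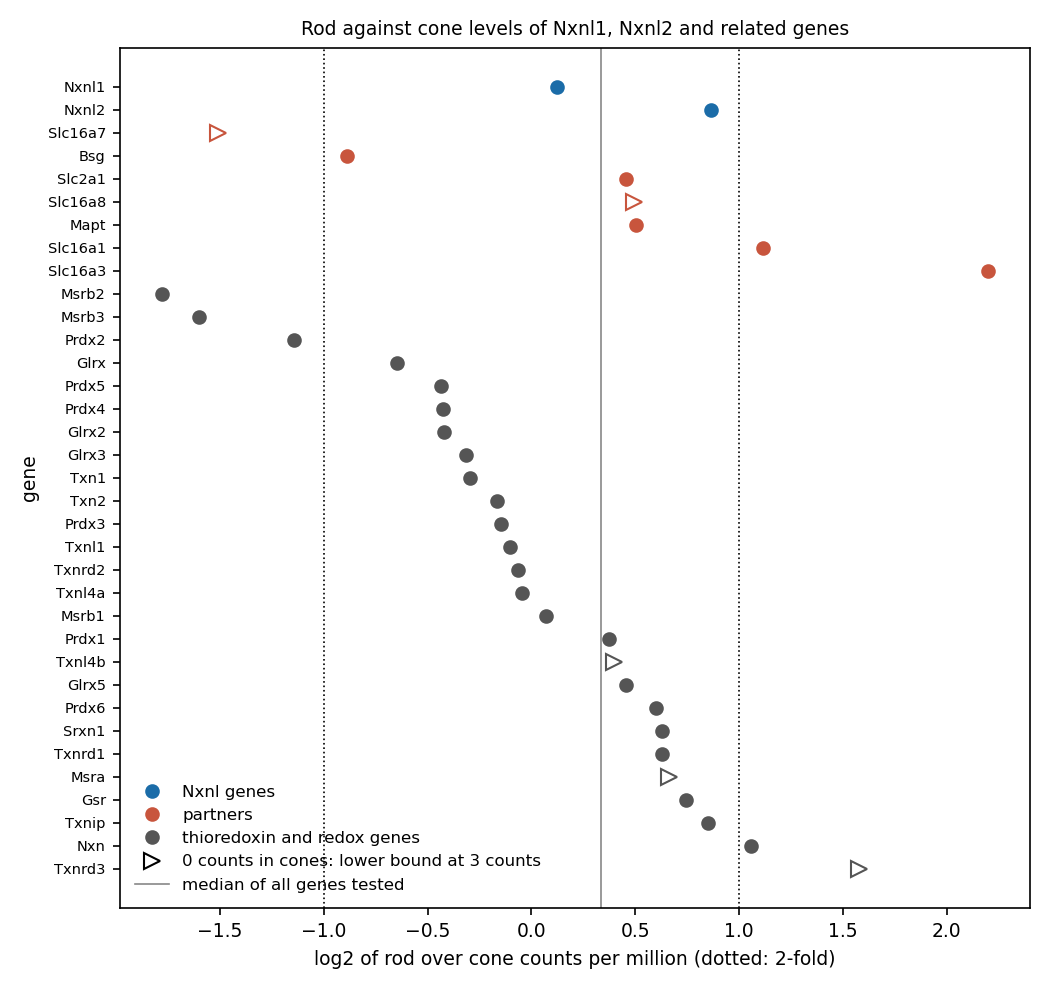
Log2 of rod over cone CPM for Nxnl1 and Nxnl2 (blue), 7 genes of the list of partners and lactate transporters (red) and 26 thioredoxin and redox genes (grey). Dotted lines are at 2-fold and a grey line is at the median of all genes tested. Open triangles are lower bounds for genes with 0 counts in cones. Both Nxnl genes lie between the dotted lines, at 0.12 and 0.86.

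Genes with the most similar pattern were ranked by the Pearson correlation of log2(CPM + 1) over the 6 columns, among 9863 genes. The columns share libraries and scaling, and with 6 points high values are common: 111 genes reached 0.95 with Nxnl1 and 135 with Nxnl2. For Nxnl1 the closest were Frmpd2, a scaffold protein (0.998), Fabp4, a fatty acid binding protein (0.998), Nsmce4a, of the SMC5/6 complex (0.997), Mak, a kinase of the photoreceptor cilium (0.997), and Mast2, a kinase (0.996). For Nxnl2 they were St6galnac2, a sialyltransferase (0.997), Adnp2, a homeobox protein (0.997), Tysnd1, a peroxisomal protease (0.995), Tmpo, a nuclear lamina protein (0.995), and Cars2, a mitochondrial tRNA synthetase (0.994). Mak had 21.1 CPM in rods and 14.0 CPM in cones, and St6galnac2 had 50.4 and 44.2 CPM. The correlation does not depend on the size of the differences between classes, so genes present in all classes also rank high. Nsmce4a had 15.6 CPM in rods and 5.38 to 6.13 CPM in the classes other than rods and cones. For Cars2 these values were 17.3 CPM and 3.38 to 8.15 CPM. Nxnl1 and Nxnl2 correlated with each other at 0.873. The names depended on the measure: with Spearman correlation 0 of the 5 named for Nxnl1 and 1 of the 5 for Nxnl2 were among the closest 5, with a pseudocount of 0.1 it was 1 for each, and without the ganglion cell column it was 3 and 0.

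The start regions of both genes are shown because both were highest in photoreceptors, where the homeodomain factor Crx binds the core motif TAATCC. The windows run from 250 bases before to 50 bases after the start of each gene in RefSeq (GRCm38.p6), chr8:71566600-71566899 on the minus strand and chr13:51170775-51171074 on the plus strand. A match on either strand is in capitals:
Nxnl1 promoter: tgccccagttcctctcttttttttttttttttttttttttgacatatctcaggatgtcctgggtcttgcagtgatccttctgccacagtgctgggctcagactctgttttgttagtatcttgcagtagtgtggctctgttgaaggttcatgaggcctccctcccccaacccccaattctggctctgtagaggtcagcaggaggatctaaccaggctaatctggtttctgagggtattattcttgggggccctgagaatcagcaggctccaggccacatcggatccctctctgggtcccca
Nxnl2 promoter: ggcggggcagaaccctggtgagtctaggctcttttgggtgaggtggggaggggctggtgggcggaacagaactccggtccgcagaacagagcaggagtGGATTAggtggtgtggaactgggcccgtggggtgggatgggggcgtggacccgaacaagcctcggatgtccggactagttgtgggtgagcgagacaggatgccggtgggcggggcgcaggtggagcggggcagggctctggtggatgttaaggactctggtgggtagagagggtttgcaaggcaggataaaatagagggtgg
Nxnl2 had 1 match, read as GGATTA on the printed strand, between 152 and 147 bases before the start, and Nxnl1 had 0 matches in its window. Of 32851 promoter windows of this length, 2320 (7.06%) held the motif on either strand. A match describes letters and not binding, and its lack says nothing about the factor. Crx itself had 182 CPM in rods and 98.9 CPM in cones.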

How the data were processed

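Whole-number counts per isoform in 6 cell class columns were used as the authors deposited them. In the deposited annotation the source of the models is FLAIR, which assembles isoforms from long reads, and the submitters' processing notes name the build mm10. Whether reads were collapsed to molecules, how cells were typed and how doublets were treated is not given in the sources used here. Column totals were 55437340 (rods), 7307134 (cones), 48248340 (amacrine), 29010038 (bipolar), 6133094 (Müller glia) and 3509890 (ganglion cells). Of 122601 introns in the models, 94.4% were in GENCODE M21 (GRCm38), which was used for symbols and sequences. A test with libraries as replicates was planned for tables with library columns, and was not run here.

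Counts were scaled to 1000000 per column (CPM). Intervals are exact 95% intervals (Poisson for levels, Clopper-Pearson for ratios of counts), and they and the limit of 3 counts at a count of 0 do not cover more than counting error, as reads may share a molecule. Folds between rods and cones were called by size (at least 2-fold) over genes with at least 100 counts, with a count of 0 set to 3. Members, lists, markers and rules were chosen with earlier results of these data known. Genes named were the members, the 5 genes most like each, and listed genes that were abundant in rods or 2-fold apart, with Bsg, Slc2a1 and Mapt in any case. The values of 1 rod marker are not reported singly here. Crx, Txn1, Txn2, the lactate transporters at 0 counts in cones and the photoreceptor genes of the closing part were added after their values were seen. The rules were tested on simulated data: all 200 planted 4-fold changes among 10646 gene identifiers were recovered, with 265 false calls. Changes were planted only where the expected cone count was above 20, and the simulated counts held counting error only. The recovery therefore does not extend to Nxnl1, Nxn, Msrb3 or Txnrd3, which had fewer counts in cones. Alternatives were other scalings with edgeR 4.0.16 and DESeq2 1.42.0 factors, equal depth over 20 draws, other count minimums, other definitions of the short form, and other measures of likeness. Python 3.11.15, Biopython 1.88 and R 4.3.3 were used.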

Additional observations from a re-analysis of the deposited data

How the results depend on the processing

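Of 128 comparisons of a value with an alternative, 54 could not differ, since each gene had 1 listed isoform. Of the other 74, 49 stayed and 25 moved. Some of the 49 were also fixed or nearly so. Equal depth draws again from the same counts and leaves the ganglion cell column unchanged, and a count of 0 stays 0 under any scaling. A level or fold of the 2 genes stayed if it lay inside its counting interval, and other percentages and counts stayed if they were within 1.5-fold. The cause of the moves was not tested. Only the rod to cone folds of the 2 genes could count as reversed, on leaving that interval and crossing equal levels, and 0 did. The fold of Nxnl1 crossed equal levels under both other scalings, at 0.993 and 0.904, and counted as stayed inside its wide interval. Nxnl2 moved to 1439 CPM in rods and 869 CPM in cones with a trimmed mean of M-values, and to 1392 CPM in rods, 923 in cones, 201.5 in Müller glia and 10.5 in amacrine cells with the median of ratios. The order of classes for Nxnl2 was the same under both. Of the 5 genes most like Nxnl1, 0 were kept with Spearman correlation, 1 with a pseudocount of 0.1, 3 with a pseudocount of 10, 2 at 10 counts, 2 without a filter and 3 without the RGC column. Of those most like Nxnl2, 1 was kept with Spearman correlation, 1 and 3 with these pseudocounts and 0 without the RGC column. Among genes with at least 100 CPM in rods or cones, 9.04% were at least 2-fold higher in rods and 8.24% in cones. The RGC column, the level of at least 100 CPM and the scalings of the lists and of the rod to cone folds were added after seeing the data. The shares of the forms that keep intron 1, and levels under minimums of 10 counts or 2 exons per isoform, make up the 54. Equal depth was not run for these shares. No library could be left out, since none has a column of its own. No paired analysis was possible because replicate numbers of libraries appear in no column.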

Other observations

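The 28 counts of Nxnl2 in ganglion cells were compared with those of other photoreceptor genes, chosen after the values were seen as those with at least 100 CPM in rods and 90% of their summed CPM in rods and cones. Of these 46 genes, 40 had 0 counts in the ganglion cell column, and all 46 had counts in each of the other classes. The summed CPM of the rule includes the ganglion cell column, so genes with a high share in it were left out beforehand. Among all 13439 genes, 7361 had a count in the ganglion cell column. All 10 genes of this set with a higher rod level than Nxnl2 were among the 40, including Pde6g, the inhibitory subunit of rod phosphodiesterase, with 29998 CPM in rods, Pdc (phosducin) with 19831 CPM and Rcvrn (recoverin) with 14696 CPM. Besides Nxnl2 the genes with counts were Fscn2, a photoreceptor fascin, with 14 counts, Reep6, a rod membrane-shaping protein, with 12 counts, and Susd3, Dpf3 and Samd11 with 1 count each. Relative to the rod level, Reep6 (1.06%) and Fscn2 (0.774%) had higher values than Nxnl2 (0.521%), but their intervals (0.549 to 1.86% and 0.423 to 1.30%) overlap that of Nxnl2 (0.346 to 0.754%). For 7 of the 40 genes at 0 counts, the limit of 3 counts lies at or above the 0.521% of Nxnl2, and for 33 it lies below. Among the 33, the limits of Crx (0.469%) and Opn1mw (0.347%) still lie inside the interval of Nxnl2.

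In the other columns too the percentages of the set are partly fixed by the rule, which asks for most of the level in rods and cones. They are given as a description. Nxnl2 was at 0.788% of its rod level in amacrine cells, where the median of the set was 0.709%, at 3.05% in bipolar cells (median 3.09%) and at 55.0% in cones (median 41.1%). In Müller glia, at 11.0%, it was above the upper quartile of 9.59%. Whether genes were filtered by class before deposit is not given in the sources used here.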
